A study of Oryctolagus cuniculus with 8 samples.

Results

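An induced pluripotent stem (iPS) cell line made from rabbit liver cells was compared with an iPS line made from rabbit stomach cells. The comparison used 4 of the 8 arrays of the series, placed on either side by their labels and not by a measured value: the liver-derived line at passages 7 and 23 and the stomach-derived line at passages 6 and 22. The other 4 arrays held the embryonic stem (ES) cell lines rdES4 and rdES2-1, liver cells and stomach cells, with 1 array each. All cells came from the Dutch rabbit strain. The medium was a stem cell medium for the ES and iPS lines and a somatic cell medium for the tissue cells, and each array measured total RNA labelled with Cy3. Each tissue of origin is represented by 1 iPS line, so the tissue, the line and the animal it came from cannot be told apart. The reprogramming factors, the number of animals and the cells picked from each organ are not given in the sources used here. Arrays of a line are passages of 1 culture and not separate lines.

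iPS cells are body cells returned to a state that resembles that of ES cells by forced activity of a few transcription factors. The genes of the former tissue are switched off in this process and the genes of the pluripotent state are switched on. Newly made lines from different tissues have been described to keep some activity or chromatin marks of the tissue they came from, and these can fade with culture. Lines made from a single tissue also differ from each other. Liver is known for plasma proteins, lipid handling and glycogen storage, and stomach for acid and pepsinogen secretion.

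Levels below are the log2 processed signal of a probe minus the 75th percentile of its array, so 0 stands for a probe at that percentile, and differences are the liver line minus the stomach line in log2 units. The early pair is passage 7 of the liver line against passage 6 of the stomach line, and the late pair is passage 23 against passage 22. On the 4 iPS arrays that percentile was a signal of 296.9 to 341.5, and 62.37% to 63.97% of probes passed the scanner software's mark for being well above background. No spot was saturated. Both arrays of the liver line lay on slide 1, with rdES4 and the liver cells, and both arrays of the stomach line lay on slide 3. Slide 2 held rdES2-1 and the stomach cells. Line and slide therefore cannot be told apart. The slope of signal against amount for the spike-in RNAs was 0.931 and 0.912 in the liver line and 0.874 and 0.891 in the stomach line, and its part in the line difference was not tested.

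Of the 3 pluripotency markers tested, POU5F1 and PODXL did not separate the lines, and KLF5 was 2-fold apart in the early pair only. POU5F1, the transcription factor OCT4 at the centre of the pluripotency network, was at 7.62 and 7.08 in the liver line and at 7.57 and 7.12 in the stomach line, with differences of 0.05 early and -0.04 late. PODXL, a sialylated surface protein of pluripotent cells, lay between 7.29 and 7.32 on all 4 iPS arrays. In the tissue cells POU5F1 was at -3.63 and -3.46. Both lines thus carried the same level of POU5F1 and PODXL to within 0.05 at either passage. KLF5, a transcription factor active in ES cells, was low throughout. It was at -3.58 and -4.85 in the liver line against -4.73 and -5.16 in the stomach line, a difference of 1.16 early and 0.31 late.

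The lines were alike over most of the array. Across the 26990 probes tested, which were well above background on both arrays of at least 1 line, Pearson's r was 0.988 between the lines in the early pair and 0.993 in the late pair. Within a line, between passages, it was 0.988 for the liver line and 0.99 for the stomach line, and between the ES lines it was 0.99. The late arrays of the different lines were thus at least as close to each other as the early and late arrays of either line. These values are across probes and describe the arrays; probes are not independent replicates. The SD of the difference over all tested probes was 0.472 in the early pair and 0.379 in the late pair, against 0.425 between the ES lines and 0.72 between liver and stomach cells.

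A difference was counted where a probe was at least 2-fold apart in the same direction in both pairs. This held for 218 probes (0.808% of those tested). Of these, 117 (0.433%) were higher in the liver line and 101 (0.374%) in the stomach line. In single pairs the 2-fold mark was passed by 1137 probes early (4.21%) and 640 late (2.37%), so most of what differed at one passage was under 2-fold at the other. Between the ES lines 857 probes (3.18%) were 2-fold apart, and between liver and stomach cells 2523 (9.35%). These counts, and the SDs above for the same pairs, are over probes chosen by the iPS arrays. Probes bright only in ES or tissue cells do not enter them. The change from early to late passage reached 2-fold in the same direction in both lines for 381 probes (1.41%), more probes than were 2-fold apart between the lines at both passages. A further 31 probes were 2-fold apart in opposite directions in the early and late pairs.

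**Figure D1:**
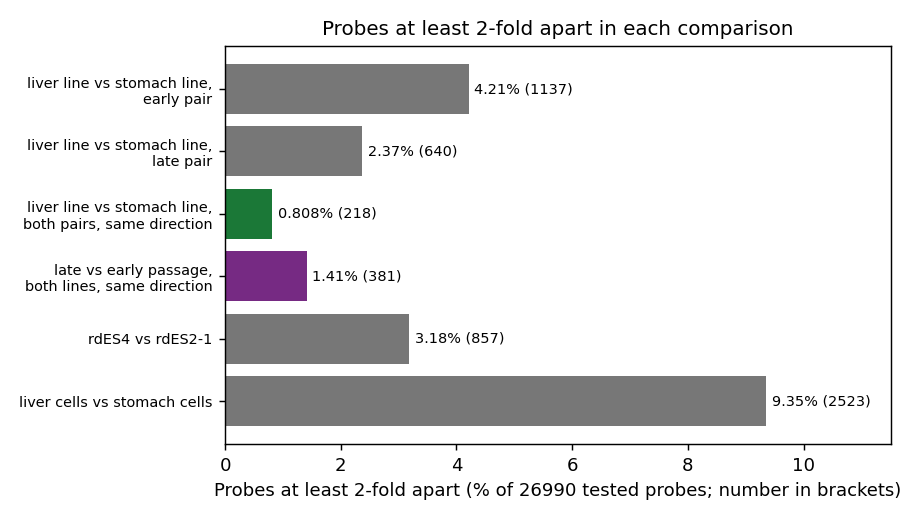
Bars give the share of the 26990 tested probes, in percent, that were at least 2-fold apart in each comparison, with the number of probes in brackets. The bar for the liver line against the stomach line in both pairs (0.808%, 218 probes) is the shortest, and the bar for liver against stomach cells (9.35%, 2523 probes) is the longest.

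Across tested probes the early and late line differences correlated with r = 0.379, a description in which each array enters 1 difference. All 4 iPS arrays were well above background for 73 of the 218 probes, 46 of them higher in the liver line and 27 in the stomach line (0.286% of the 25502 probes above background on all 4). Another 99 were dim on both arrays of the lower line, where the size of the difference is only a bound. They entered the test through the higher line alone, so a difference was built into their selection. Of all tested probes, 222 were dim on both stomach line arrays and 163 on both liver line arrays. limma, which set the mean difference of a line's 2 arrays against the spread between passages, called 1 probe at an adjusted p under 0.05 (0.00371%), and 1631 probes had an unadjusted p under 0.05. That p measures the spread between passages of a line, part of which is the passage change itself, and not the spread between lines.

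**Figure D2:**
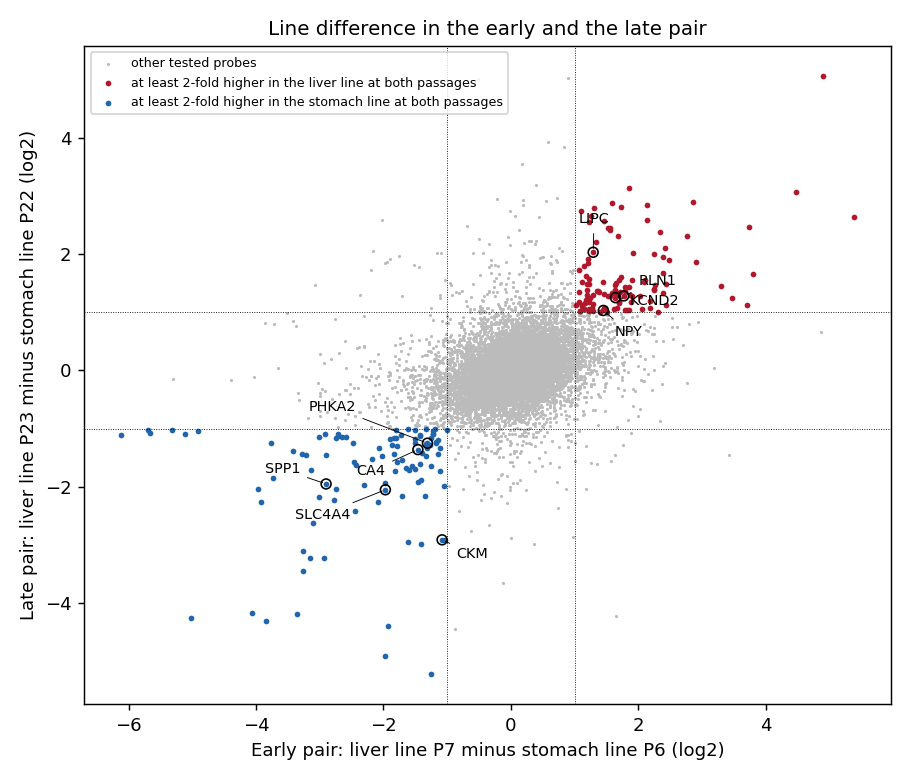
Each point is a tested probe, with the line difference in the early pair (log2) on the horizontal axis and in the late pair (log2) on the vertical axis; dotted lines mark 2-fold. The 117 red probes at the upper right and the 101 blue probes at the lower left were at least 2-fold apart in both pairs, and circles mark the 9 named genes among them.

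Gene symbols were found for 463 genes with a tested probe, each represented by its brightest probe. Of these, 9 (1.94%) were at least 2-fold apart in both pairs, 4 higher in the liver line (0.864%) and 5 higher in the stomach line (1.08%). limma called 0 of the 463 genes, with a lowest adjusted p of 0.219, and 48 had an unadjusted p under 0.05. The 9 genes are given here as measured differences at both passages and not as tested ones. With dim spots raised to the lowest signal above background 6 of them remained 2-fold apart in both pairs, and LIPC, SLC4A4 and SPP1, which were dim in the lower line, did not. They do not share a pathway list: 1 potassium channel, 1 solute carrier and 1 muscle gene were the only members of the 22 lists examined. With another background correction, normexp with an offset of 50 followed by quantile scaling, none of the 9 was 2-fold apart in both pairs and the probe count was 13 in place of 218. PHKA2 came nearest there, at -1.0 early, just short of 2-fold, and -1.32 late.

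Among genes higher in the liver line, RLN1 (NM_001082320), which encodes relaxin, a peptide hormone of the insulin family, was at -0.08 and -2.56 in the liver line and at -1.84 and -3.83 in the stomach line. It was lower at the late passage in both lines, and the late liver line array lay below the early stomach line array. The difference was 1.77 early and 1.28 late, a mean of 1.52 ± 1.12 (SE, n = 2 arrays a line; limma adjusted p = 0.877), and all 3 RLN1 probes passed 2-fold in both pairs. Since RLN1 was far apart between passages, its mean difference ranged from 0.28 without the early liver line array to 2.76 without the late one. The ES lines were at -3.46 and -3.13, near the late stomach line. Liver cells were at -1.17 and stomach cells at -4.77.

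RLN1 and NPY (NM_001160286), the neurotransmitter neuropeptide Y, were the genes among the 9 whose source cells, as labelled, were at least 2-fold apart in the same direction as the iPS lines. RLN1 was dim in stomach cells and differed there by at least 3.49 in log2 units, and NPY differed by 1.29. NPY was at -2.93 and -2.59 in the liver line and at -4.38 and -3.62 in the stomach line, so the lines did not overlap. The difference was 1.45 early and 1.03 late, a mean of 1.24 ± 0.31 (SE, n = 2 arrays a line; limma adjusted p = 0.75). The ES lines, at -1.92 and -1.89, lay above both iPS lines, and liver and stomach cells were at 3.49 and 2.20. The late difference was 0.99 with quantile scaling, just short of 2-fold.

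KCND2 (NM_001082118), a pore subunit of the A-type potassium channel, followed the passage pattern of RLN1. It was at -0.84 and -2.63 in the liver line and at -2.48 and -3.88 in the stomach line. The ES lines were at -2.58 and -3.10, and both tissue cell arrays were below background. The difference was 1.64 early and 1.25 late, and 1 of its 3 probes passed 2-fold in both pairs. The other probes differed in the same direction, by 0.61 and 0.79 late.

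LIPC (NM_001082032), hepatic lipase, an enzyme that liver secretes to act on lipoprotein lipids, was above background in the liver line and not in the stomach line. It was at -4.55 and -4.81 in the first and at -5.84 and -6.84 in the second, where both arrays were dim, and 1 of the 2 ES arrays was above background. Its level in the liver line was at least 1.62-fold higher, a bound that sets the mean of the bright line against, for each dim array, the higher of the probe's own level and the lowest level that was well above background. On the array of liver cells LIPC was itself dim, at -6.80, as on that of stomach cells, at -6.94. LIPC entered the test through the liver line alone, and its adjusted p from limma, 0.75, rests on dim stomach line spots. The hepatic lipase probe was thus close to background in the liver line and below the mark in the liver cells.

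Some genes stood just under the mark, and those given here were picked after their values were seen. SLC7A8, a transporter of neutral amino acids, was at 3.75 and 4.20 in the liver line and at 2.76 and 3.10 in the stomach line, without overlap. The difference was 0.99 early and 1.1 late, 3 of its 6 probes passed 2-fold in both pairs, and the mean over its probes did too. Its ES lines differed as much as the iPS lines did, with rdES4 at 4.75 and rdES2-1 at 3.31, while liver cells, at 1.31, were below stomach cells, at 3.91. MMP9, a secreted gelatinase, was at -0.82 and -1.74 against -2.03 and -2.68, with differences of 1.22 and 0.95. On the stomach side TFPI stood about as near, with differences of -0.92 and -1.16.

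Among genes higher in the stomach line, PHKA2 (NM_001135681) was well above background on all 8 arrays. It encodes the liver form of the regulatory alpha subunit of phosphorylase kinase, the enzyme that starts glycogen breakdown. It was at 1.46 and 1.78 in the liver line and at 2.78 and 3.04 in the stomach line, so the lines did not overlap and neither moved much with passage. The difference was -1.31 early and -1.25 late, a mean of -1.28 ± 0.18 (SE, n = 2 arrays a line; limma adjusted p = 0.657). The ES lines were at 1.73 and 2.21, on the liver line's side. Liver and stomach cells, at -0.14 and -0.07, hardly differed. The muscle form, PHKA1, was lower in the liver line too, by -0.41 early and -0.54 late, and its dimmer probe by -1.0 and -1.03.

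CA4 and SLC4A4 both have roles in bicarbonate handling. CA4 (NM_001082372), a carbonic anhydrase anchored to the outer cell surface, was at -3.53 and -2.33 in the liver line and at -2.07 and -0.97 in the stomach line. It was higher at the late passage in both lines, and the late liver line array remained below the early stomach line array. The difference was -1.46 early and -1.36 late, a mean of -1.41 ± 0.58 (SE, n = 2 arrays a line; limma adjusted p = 0.832). With the ES lines at -1.09 and -1.52, it was the liver line that stood apart. SLC4A4 (NM_001082060), a sodium bicarbonate cotransporter, was at -6.76 on both liver line arrays, where it was dim, and at -4.79 and -4.71 in the stomach line. It was at least 1.55-fold higher in the stomach line. Its adjusted p from limma, 0.219, was the lowest of any named gene, but it rests on dim liver line spots. SLC4A4 entered the test through the stomach line alone, so a difference was built into its selection. With dim spots raised to the lowest signal above background it differed by -0.58 early and -0.69 late.

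SPP1 (NM_001082194), the secreted phosphoprotein osteopontin, was dim in the liver line, at -7.65 and -5.75, and above background in the stomach line, at -4.75 and -3.81. It was at least 2.15-fold higher in the stomach line (limma adjusted p = 0.78). SPP1 entered the test through the stomach line alone, and that p rests on dim liver line spots. Both ES lines were dim as well, so the stomach line was the only pluripotent line of the series in which its probe was above background. The source cells ran the other way: liver cells were at 1.96 and stomach cells at 0.00. CKM (NM_001082239), the muscle creatine kinase, was at -5.34 and -4.98 in the liver line and at -4.25 and -2.06 in the stomach line, a difference of -1.08 early and -2.91 late. Only 1 of the 2 liver line arrays was above background for CKM. Without scaling between arrays its early difference was -0.92.

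MGP, which encodes matrix Gla protein, an inhibitor of calcification, showed how far a gene can depend on the probe. Of its 6 probes, 4 were at least 2-fold higher in the stomach line in both pairs as measured, and the mean over the probes differed by -1.79 early and -1.04 late. On 4 of the 6 probes 1 of the liver line arrays was dim, and 2 probes were 2-fold apart in both pairs once dim spots were raised to the lowest signal above background. Its brightest probe did not pass, at -6.01 and -1.31 in the liver line and -4.37 and -0.98 in the stomach line. MGP was higher at the late passage on all 6 probes in both lines, and far higher in the tissue cells, at 7.15 and 5.18. Taking the mean over a gene's probes gave 9 genes as well, 3 higher in the liver line and 6 in the stomach line, with SLC7A8 and MGP in place of KCND2 and NPY. Of the 236 genes with several tested probes, 70 had probes of opposite sign. 1 such gene, chosen after its values were seen, was ST7, where 1 of 3 probes passed in favour of the liver line. The others, assigned to a different ST7 transcript, lay slightly on the stomach side. The passing probe was dim on both stomach line arrays and entered the test through the liver line alone. With dim spots raised it differed by 1.12 early and 1.04 late.

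**Figure D3:**
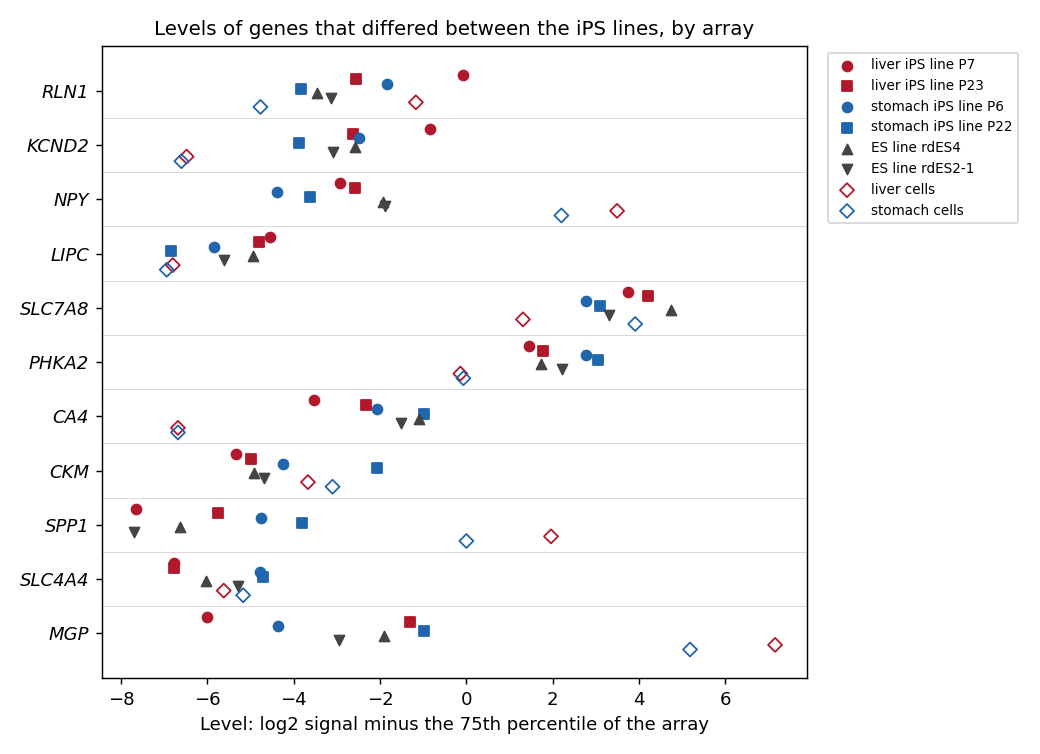
Levels of 11 genes on each of the 8 arrays, as log2 signal minus the 75th percentile of the array; filled red and blue symbols are the iPS lines (circles early, squares late), black triangles the ES lines and open diamonds the tissue cells. PHKA2 separates the lines by -1.31 and -1.25 with little movement by passage, whereas RLN1, KCND2 and MGP also move with passage in both lines.

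A few more genes were above background in 1 of the iPS lines alone. In the liver line these were 7 of the 463 named genes, LIPC among them, beside 222 of the 26990 tested probes. KCNJ11, a subunit of the ATP-sensitive potassium channel, was at least 1.56-fold higher there, MLNR, the motilin receptor, at least 1.31-fold, NPY6R, a receptor of the neuropeptide Y family, at least 1.27-fold, TACR2, a tachykinin receptor, at least 1.18-fold, and CLDN1, a tight junction protein, at least 1.1-fold. The remaining gene, CYP8B1, named after its values were seen, was at least 1.14-fold higher in the liver line. In the stomach line there were 4 of the 463 genes, beside 163 of the 26990 tested probes. Beside SPP1 and SLC4A4 they were KCND3, a channel subunit related to KCND2, at least 1.61-fold higher, and MMP14, a membrane-bound metalloproteinase, at least 1.38-fold. KCND3 entered the test through the stomach line alone, so its side is not set against that of KCND2. With dim spots raised to the lowest signal above background KCND3 differed by -0.62 early and -0.76 late. All of these genes entered the test through 1 line alone, so a difference was built into their selection, and the differences lie near the background of the arrays.

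None of the tested members of the hepatocyte and gastric lists, which do not hold LIPC, was 2-fold apart between the lines in both pairs. Of the 24 hepatocyte genes listed, 5 had a tested probe, 0 passed 2-fold in both pairs in either direction and limma called 0. Their median difference was -0.17, against -0.003 over all tested probes. TF, the iron carrier transferrin, was at 0.29 and 1.00 in the liver line and at 0.40 and 1.24 in the stomach line. RBP4, the plasma carrier of retinol, was at 0.36 and -0.64 in the liver line and at -0.17 and -0.89 in the stomach line. APOE, a lipoprotein component, differed by -0.26 early and -0.07 late, and HPX, the haem carrier hemopexin, by -0.39 and -0.26. HP, haptoglobin, differed by -0.34 early and 0.28 late.

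The 2 gastric genes with a tested probe gave values on opposite sides. ATP4A, the catalytic subunit of the gastric proton pump, was at -3.61 and -3.64 in the liver line and at -3.92 and -4.05 in the stomach line. PGC, pepsinogen C, was at -4.27 and -3.37 in the liver line and at -3.99 and -2.94 in the stomach line. Neither passed 2-fold in either pair. The labels of the source cells were themselves not matched by these markers: the summed level of the 5 hepatocyte genes, as signal over the 75th percentile, was 4.63 in liver cells and 19.9 in stomach cells. RBP4 and HP carry most of this sum, while TF ran the other way, at -1.62 in liver cells and -2.83 in stomach cells. The sum was 3.96 and 3.42 in the liver line and 4.03 and 3.65 in the stomach line. The summed level of both gastric genes was 0.104 in liver cells and 0.106 in stomach cells. The albumin gene did not enter the tested set.

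The summed level of the 6 tested fibroblast and mesenchyme genes was 342 in liver cells and 343 in stomach cells, and between 9.78 and 12.4 on the 4 iPS arrays, highest in the early liver line. MGP and TIMP1 carry most of the sum in the source cells, whereas MMP3, a stromelysin, was at -2.26 in stomach cells, below both liver line arrays. Of these genes, 5 were higher in the liver line in both pairs and 1, MGP, was lower, with a median difference of 0.30 and none at 2-fold in both pairs. Over the 463 named genes 30.7% were higher in the liver line in both pairs and 36.7% lower, and over all tested probes 30.3% and 32.0%. CAV1, the coat protein of caveolae, was at 0.36 and -2.67 in the liver line and at -0.31 and -3.57 in the stomach line. CAV1 was further apart between passages of a line than between the lines. MMP3 differed between the lines by 0.44 and 0.41. The share of residual or differentiated cells in either line was not tested, and in bulk RNA fewer cells of a type and less RNA per cell cannot be told apart.

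Other gene groups gave few or no genes at 2-fold in both pairs, beside 9 of the 463 named genes (1.94%). Of 12 muscle genes tested, CKM alone passed, in favour of the stomach line, and the median difference was -0.20. ACTA2, smooth muscle actin, was at -0.07 and 0.28 in the liver line and at 0.79 and 0.76 in the stomach line, without overlap, a difference of -0.87 early and -0.48 late. ATP2A1, a calcium pump of muscle, differed by -0.34 and -0.91. The summed level of the muscle genes was 111 and 93.2 in the liver line and 120 and 96.5 in the stomach line. Of 10 inflammation and chemokine genes none passed, with a median of 0.26. CXCL8, the chemokine interleukin-8, differed by 0.53 and 0.72, and IL1RN, an inhibitor of interleukin-1, by 0.32 and 0.75.

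Of 7 epithelial junction and apical genes, 5 were on the liver side in both pairs (30.7% of all named genes), CLDN1 among them with both stomach line arrays dim, and none passed 2-fold. CXADR, a junction protein, was at 3.43 and 3.40 in the liver line and at 3.18 and 3.17 in the stomach line. EZR, which links membrane to actin, differed by 0.56 and 0.20. In the potassium channel list 1 of 8 genes passed, KCND2, and in the solute carriers 1 of 16, SLC4A4, beside 9 of all 463 named genes (1.94%). Single members do not set these lists apart. SLC4A4 entered the test through the stomach line alone and did not pass with dim spots raised. SLC5A1, the sodium glucose cotransporter, stood on the liver side at 0.91 and 0.61, and SLC7A9, part of an amino acid exchanger, on the stomach side at -1.47 and -0.30. Of 15 calcium and sodium channel genes, 9 xenobiotic metabolism genes, 8 glycolysis genes and 17 signalling genes, none passed, with medians of 0.01, -0.10, 0.00 and -0.04.

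Within these lists a few genes came close in 1 pair only. FGFR2, a fibroblast growth factor receptor, was at -5.50 and -3.56 in the liver line and at -3.97 and -2.80 in the stomach line, a difference of -1.53 early and -0.76 late. The early liver line array was dim for FGFR2, and the early difference was -1.39 against the lowest signal above background. TRPC1, a cation channel, differed by -1.40 early and 0.02 late. HBB2, a globin gene, differed by 1.27 early and 0.63 late. FMO2, a flavin monooxygenase, differed by 0.60 and 1.26, where the late stomach line array was dim and the bound was 1.07. FMO1, of the same family, ran the other way, at -0.18 early and -1.49 late, with all 4 iPS arrays above background. PTGER4, of the signalling list, differed by -1.57 early and 0.61 late, and EIF2AK2, of the kinase list, by 0.23 and -2.05. PAX6, a transcription factor of eye and neural development, was the only neural gene tested. It was at -5.98 and -1.49 in the liver line and at -3.29 and -1.79 in the stomach line, so its difference of -2.69 early was 0.30 late. The early liver line array was dim for PAX6, and the bound on the early difference was -2.08. PPARG, a nuclear receptor of fat cells, was steadier, at -2.07 and -2.45 against -2.74 and -2.99.

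Genes that all cells use were close. Of 5 reference genes none passed, with a median of -0.05. GAPDH, a glycolytic enzyme, differed by -0.22 and -0.20, ACTB, beta actin, by -0.08 and -0.27, HPRT1, a purine salvage enzyme, by -0.04 and 0.14, and PPIA, a protein folding enzyme, by -0.03 and -0.03. Of 18 translation and chaperone genes, none passed 2-fold, but 13 were lower in the liver line in both pairs (36.7% of all named genes) and 3 higher (30.7%), with a median of -0.06. Without scaling between arrays the median over all tested probes shifts from -0.003 to 0.177, so the direction of differences this small depends on the scaling. VDAC1, the channel of the mitochondrial outer membrane, was the furthest of these, at 4.24 and 4.17 in the liver line against 4.83 and 4.72 in the stomach line.

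VDAC1 belongs to a stretch of neighbouring genes that were all lower in the liver line than in the stomach line. This was noticed after the values were seen and is given as a description. Along the order of genes in the RefSeq table, 201 named genes were above background on all 4 iPS arrays with a mean level above 0. Of these, 13 were at least 0.3 lower and 8 at least 0.3 higher in the liver line in both pairs. In a single place 4 or more such genes followed one another. These 5 genes were HINT1, a nucleotide hydrolase, VDAC1, PPP2CA, a catalytic subunit of protein phosphatase 2A, UBE2B, a ubiquitin-conjugating enzyme, and ETF1, the translation termination factor. The stretch counts only these well-expressed named genes, and unnamed genes between them were not placed.

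In the early pair HINT1 differed by -0.67, VDAC1 by -0.59, PPP2CA by -0.52, UBE2B by -0.62 and ETF1 by -0.54. In the late pair the same genes differed by -0.55, -0.55, -0.58, -0.34 and -0.52. All of the 26 probes of these genes pointed the same way. PPP2CA, as an example, was at 4.99 and 4.95 in the liver line and at 5.51 and 5.53 in the stomach line, without overlap. The ES lines were at 4.89 and 4.88, on the liver line's side. For each of the 5 genes both ES lines lay below both stomach line arrays and nearer the liver line. It was thus the stomach line that stood apart. Between the ES lines the 5 genes differed by -0.38 to 0.01 and between the source cells by 0.00 to 0.25. CSNK1A1, a casein kinase and the next gene of the same order, differed by -0.08 and 0.06. The adjusted p from limma lay between 0.75 and 0.752 for the 5 genes, and the mean differences were -0.43 to -0.30 without scaling between arrays.

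**Figure D4:**
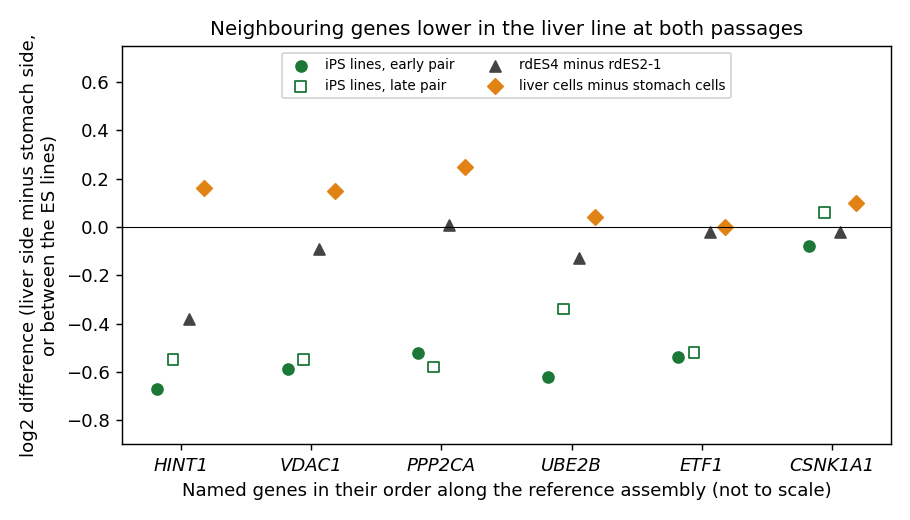
Log2 differences for 5 neighbouring genes and the next gene, CSNK1A1, in their order along the reference assembly (not to scale); green circles and open squares are the iPS lines in the early and late pair, triangles the ES lines (rdES4 minus rdES2-1) and diamonds liver minus stomach cells. The iPS differences lie between -0.67 and -0.34 for the 5 genes and at -0.08 and 0.06 for CSNK1A1.

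The source cells were then set beside the line differences, to see whether probes higher in a line were also higher in the tissue it came from. Of the 218 probes, 112 (51.4%, exact 95% binomial interval 44.5% to 58.2%) had the same sign in liver cells minus stomach cells as in the lines. Over all tested probes the share was 52.3%. These shares take the source cells as labelled, although their hepatocyte genes did not match the labels; with the labels turned, 106 probes (48.6%) would share the sign. At 2-fold in the source cells as labelled, 30 of the 218 probes ran the same way and 39 the opposite way. Where at least 1 source cell array was above background the share was 60 of 115 probes (52.2%). The interval covers counting error only and treats probes as separate, although the 218 probes stand for 177 accessions. The share among the probes that differed was within that interval of the share over all probes, and the source arrays are 1 culture each. The correlation of line and source differences across tested probes was 0.031.

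**Figure D5:**
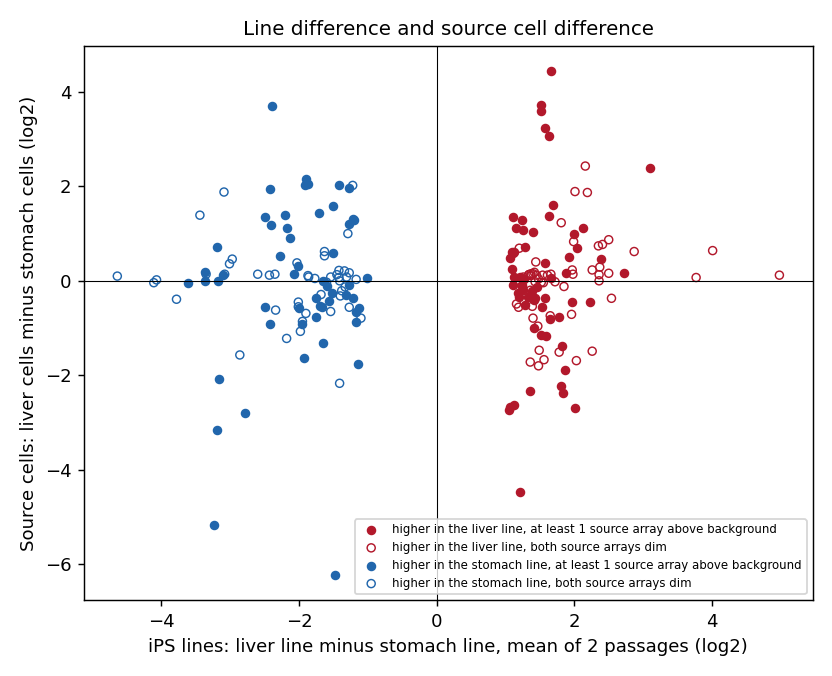
The 218 probes at least 2-fold apart between the iPS lines in both pairs, with the mean line difference (log2) on the horizontal axis and the difference between liver and stomach cells (log2) on the vertical axis; open circles were dim in both source arrays. Probes higher in either line lie on both sides of 0 for the source cells: 112 of 218 share the sign.

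The ES lines give the size of difference between lines that do not come from adult tissue, and a view of which iPS line stood apart. For the 46 probes higher in the liver line and above background on all 4 iPS arrays, the ES mean was nearer the stomach line for 35. For the 27 such probes higher in the stomach line it was nearer the liver line for 20. In most of these probes it was thus the higher iPS line that lay further from ES cells, whichever line that was. With dim probes included this was weaker. Of the 117 probes higher in the liver line the ES mean was nearer the stomach line for 70. Of the 101 higher in the stomach line it was nearer the liver line for 65. Over all tested probes the ES mean was nearer the liver line for 48.1%.

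The difference between the ES lines, rdES4 minus rdES2-1, had the same sign as the line difference for 124 of the 218 probes (56.9%), against 58.1% over all tested probes. Among the 73 probes above background on all 4 iPS arrays it was 54 (74.0%, exact 95% binomial interval 62.4% to 83.5%), with 22 at 2-fold in the same direction and 0 in the opposite. This interval covers counting error only and treats probes as separate, although some share a transcript, and each ES line is 1 array. The 58.1% is over all tested probes and not over those above background on all 4 iPS arrays. For the source cells the same 73 probes gave 42 (57.5%). rdES4 shares slide 1 with the liver line, while rdES2-1 and the stomach line lie on slides 2 and 3, and liver cells against stomach cells are also slide 1 against slide 2. The part of the slide in these shares was not tested.

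Most of the probes that differed have no symbol here: 195 of the 218. The probe called by limma (chosen after its values were seen) was that of transcript AF014717, at -2.70 and -2.60 in the liver line and -7.60 and -7.66 in the stomach line. It was dim on every other array of the series, at -7.66 and -7.80 in the ES lines and at -6.77 and -6.89 in liver and stomach cells. It was at least 6.6-fold higher in the liver line, with a fitted mean difference of 4.98 ± 0.12 (SE, n = 2 arrays a line) and an adjusted p of 0.0432. The probe entered the test through the liver line alone, so a difference was built into its selection, and the fitted value rests on dim spots of the stomach line. The call was lost, at 0 probes called, when dim spots were raised to the lowest signal above background, when all 4 arrays had to be above background, and in each limma fit that left out 1 array. The probe was thus well above background in the liver line at both passages and on no other array, that of the liver cells included.

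In the other direction ENSOCUT00000006978 was at -4.90 and -4.58 in the liver line and at -1.54 and -0.39 in the stomach line, and its 3 probes differed in the same direction. On 2 of the probes 1 liver line array was dim, and with dim spots raised their early differences were -3.41 and -3.32. The ES lines split on it, with rdES4 at -5.58 and rdES2-1 at -2.78, and both tissue cell arrays were dim. EB373875 was also higher in the stomach line, at -2.17 and -0.63 against -5.30 and -2.33, and again rdES2-1, at -1.46, was above rdES4, at -3.78. ENSOCUT00000002848 was higher in the liver line, at -0.05 and -1.14 against -3.84 and -2.79. For that transcript the ES lines, at -0.75 and -1.64, were near the liver line, and it was the stomach line that was low.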

How the data were processed

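Per the file headers, the deposited scanner values were intensities from Agilent Feature Extraction 10.5.1.1, background-subtracted and with outlying spots marked, with no scaling between arrays. The authors' deposited value table was log2 and matched these intensities, scaled to the 75th percentile and centred per probe on the median (r = 1.0 on each array; medians -0.042 to 0.342), so it served as an alternative. From the intensities, a level was computed for each of 43603 non-control probes by taking log2 of the processed signal and subtracting the array's 75th percentile, and 19 with an outlying spot were left out. Symbols came from the RefSeq table of rabbit assembly mOryCun1.1 by unversioned accession: 1933 probes of 680 genes matched. limma 3.58.1 in R 4.3.3 fitted the 4 iPS arrays in 2 groups, two-sided, with Benjamini-Hochberg adjustment over tested probes. On data simulated for this comparison it recovered 0 of 50 probes at a log2 difference of 1 and 36 of 50 at 4, with 2 false calls among 26990 probes. Named genes were, per line, up to 10 at 2-fold in both pairs and up to 5 above background in that line alone. Up to 4 of each list by mean difference and fixed markers were added. Other genes were chosen after their values were seen. This is marked where they stand, except for HP, PPIA, TIMP1 and the flagged genes ANKRD1 and RFT-II. The comparison, the lists and the named genes were chosen with earlier results of these data known. The normexp alternative used the median foreground signal, since the mean signal is not among the columns used here. The labels give the arrays of a line as different passages and not as separate cultures. The p-values thus measure the spread between passages, passage change and technical spread included, and not the spread between lines.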

Additional observations from a re-analysis of the deposited data

Results flagged for a closer look

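In 2 named genes the measured line difference was 2-fold or more in opposite directions in the early and late pairs; whether the pairs differ was not tested. ANKRD1, a stress-responsive muscle protein, was at 1.51 and -0.53 in the liver line and at 0.50 and 0.71 in the stomach line, a difference of 1.01 early and -1.24 late. RFT-II, listed under that symbol in the gene table, was at -5.22 and -4.91 in the liver line and at -6.87 and -0.69 in the stomach line, a difference of 1.65 early and -4.22 late, with 1 of 2 stomach line arrays above background. The early stomach line array was the dim one, and against the lowest signal above background the early difference was 0.14, so a 2-fold difference in that pair is not shown for RFT-II. In SPP1 the line difference of -2.90 early and -1.95 late was opposite to the difference of 1.95 between liver and stomach cells; that contrast was not tested either.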

How the results depend on the processing

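The count of 218 probes was 210 with quantile scaling, 269 without scaling between arrays and 218 in the authors' value table. Without scaling 205 were higher in the liver line and 64 in the stomach line, or 76.2% on the liver side against 53.7%. It was 13 (10 on the liver side, 76.9%) with normexp, 773 (372 and 401) with no filter on dim probes, 73 above background on all 4 arrays (63.0% on the liver side) and 112 with dim spots raised to the lowest signal above background. At 1.5-fold it was 817 and at 4-fold 26 (10 and 16, 38.5% on the liver side), and the early and late pair alone gave 1137 and 640. The 9 named genes became 0 with normexp, 5 above background on all 4 arrays, 6 with dim spots raised (without LIPC, SLC4A4 and SPP1), 27 at 1.5-fold, 0 at 4-fold, and 38 and 21 in the early and late pair alone. The share with the sign of the source cells, 51.4%, was 30.8% of the 13 normexp probes and between 50% and 57.5% in the other settings. The limma call of 1 probe became 0 with quantile scaling (1660 probes at an unadjusted p under 0.05), normexp (1236), no filter (2460), all 4 arrays above background (1380), raised dim spots (1615) and the line as the unit (867), while it stayed at 1 without scaling, in the authors' table and with the ES or all arrays added. Leaving out any 1 array gave 0 calls (1033 to 2502 probes unadjusted); a lone array is then assumed to vary like the other line. With the passage as a replicate block limma called 0 probes (3324 unadjusted) and 0 named genes (93 unadjusted); the passage change correlated between the lines with r = 0.469 across probes, but the labels do not pair the arrays. None of the 9 genes changed direction under any setting run, but sizes did: of 77 named genes, the difference moved by more than the spread between pairs for 41 with normexp, 31 without scaling, 37 without either liver line array and 29 without either stomach line array. Leaving out 1 array, RLN1 ranged from 0.28 to 2.76, KCND2 from 0.55 to 2.34, CA4 from -2.01 to -0.81, CKM from -3.09 to -0.9 and SPP1 from -3.37 to -1.48. The cause of these shifts was not tested. The number of arrays, 2 a line, and signals near background limit the precision.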
